A study of Homo sapiens with 6 samples.

Results

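The SLC25 carriers are the largest family of human solute carriers of the mitochondrial inner membrane, and 40 of their genes were examined in a human embryonic kidney cell line after knockdown of a long noncoding RNA (lncRNA). The members were the gene names of the form *SLC25A* followed by a number, other than *SLC25A1*, with at least 10 counts in every culture. Of 26485 gene names in the count table, 47 were such carrier symbols, 40 reached the minimum and 7 did not. The rule for members used no difference between the groups, but it was chosen with earlier results of these data known.

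RNA-seq of polyadenylated RNA was performed on 6 cultures of HEK293, an established embryonic kidney line. The name HEK293 is that of the paper, and the sample titles give the line a different number. In 3 of them *HSALNG0134318*, a lncRNA encoded in 22q11.2, was targeted by transient transfection with a Smart Silencer, in which antisense oligonucleotides and siRNAs against 1 transcript are combined. The other 3 were controls, labelled NC in one field and WT in another, and what they were transfected with is not given in the sources used here. Knockdown replicates 1, 2 and 3 carry the numbers 1, 4 and 5 in their column names, and control replicates 1, 2 and 3 the numbers 10, 11 and 1. What these numbers stand for, and whether a shared number marks a pair, is not given. All are labelled as biological replicates of the same line. The lncRNA is not among the names of the table, so its reduction could not be checked.

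Mitochondrial carriers are small proteins of the inner membrane built from repeated modules, each with a pair of membrane-spanning helices. Most exchange a metabolite on one side of the membrane for another on the other side, and together they connect the matrix with the cytosol for ATP and ADP, phosphate, nucleotides, cofactors, amino acids, carboxylates, acylcarnitines, iron and glutathione. They are encoded in the nucleus, translated in the cytosol and inserted by a dedicated import route. Kidney tubule cells depend strongly on mitochondrial ATP, whereas HEK293 cells, like most cultured lines, also rely on glycolysis.

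Total counts ran from 13900965 to 15583535 in the knockdown cultures and from 14732648 to 16869948 in the controls. Of the kidney lineage markers, *PAX2*, *LHX1*, *SALL1* and *EYA1* were measured in every culture, while *PAX8* stayed between 1.93 and 5.36 normalized counts. The T cell gene *CD3E* had no count, *PTPRC*, *PECAM1* and *ALB* were near 0, and the fibroblast gene *COL1A1* ran from 587 to 750. None of the tested markers had an adjusted p under 0.05 in edgeR's quasi-likelihood test. The largest log2 fold change was that of the neurofilament gene *NEFM* (0.81, adjusted p = 0.138 in edgeR's test), with overlapping groups. *NEFL* (0.25) and *SALL1* (0.23) were higher in every knockdown culture than in any control, while *LHX1* lay at -0.18 with overlapping groups. The log2 ratio of control replicate 2 to the other controls rose with the GC content of the transcripts (Pearson 0.48 over 14476 genes). No such correlation is given for the other cultures. Leaving out control replicate 2 moved the calls over all genes from 690 lower and 804 higher to 1238 lower and 1274 higher. Without control replicate 3 they were 994 lower and 1087 higher.

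Knockdown left most carriers close to the control level. Normalized counts (counts scaled to a common effective library size) were compared with edgeR's quasi-likelihood test, with Benjamini-Hochberg adjustment over 14877 genes, and a gene was called at an adjusted p under 0.05. Of the 40 members, 1 was called higher and 0 were called lower, which is 2.5% of the members. Over all genes tested, 10% were called, 4.64% lower and 5.40% higher. With the test limited to the 13993 genes with at least 10 counts in every culture, 10.6% were called. DESeq2 and limma-voom each called the same numbers of members, 1 higher and 0 lower. Without control replicate 2 there were 2 higher and 1 lower, without control replicate 3 there were 3 higher and 1 lower, and without knockdown replicate 2, knockdown replicate 3 or control replicate 1 there were 0 of either. At an unadjusted p under 0.05 there were 10 members (25%), 5 lower and 5 higher, beside 26.9% of all genes. In 11 members (27.5%) the knockdown and control cultures formed separate ranges, 6 with higher and 5 with lower knockdown values, beside 32.2% of all genes.

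The differences were mostly small in size, in the members and over all genes. Log2 fold changes of the members ran from -0.61 (*SLC25A35*) to 0.68 (*SLC25A34*), with 23 below 0 and 17 above, and a median of -0.06 beside -0.02 over all genes. The median size of the change without its sign was 0.16, and 0.20 over all genes. Standard errors ran from 0.09 to 0.34 with a median of 0.13. The 95% interval lay inside 1 log2 unit on either side of 0 for 37 members and inside a 1.5-fold change for 28. Leaving out 1 culture turned the sign for 14 members. The fold changes by function are shown in the plot of the members grouped by function.

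**Figure D1:**
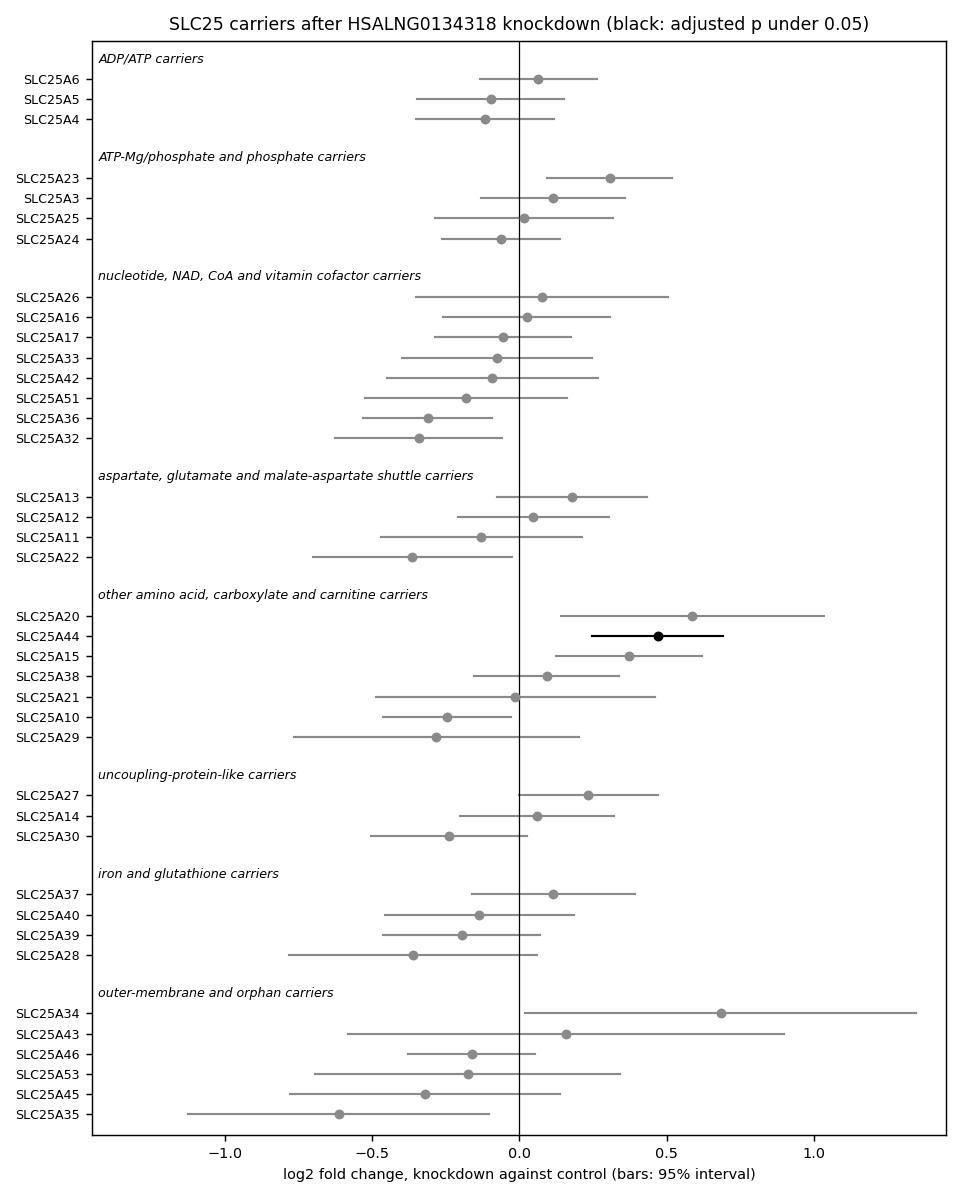
Log2 fold change of knockdown against control for 39 of the 40 carriers, grouped by what they carry. Points are edgeR estimates from 3 cultures a group, bars are 95% intervals, and the vertical line marks no change. *SLC25A44*, in black at 0.47, is the 1 member with an adjusted p under 0.05, and the other intervals mostly cross or lie near 0.

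The called member was *SLC25A44*, a carrier of branched-chain amino acids (chr1:156193932-156212796 on GRCh38, plus strand). Its normalized counts were 786, 842 and 827 in knockdown replicates 1 to 3 and 551, 614 and 607 in control replicates 1 to 3. Every knockdown culture lay above every control culture, and the groups were far apart beside their spread (818 ± 29.1 against 591 ± 34.5, SD, n = 3 each). The log2 fold change was 0.47 (SE 0.10, 95% interval 0.25 to 0.69), a 1.38-fold rise with an adjusted p of 0.0143 in edgeR's test. The adjusted p ran from 0.00215 to 0.0896 over 14 alternative settings, and the call was lost without knockdown replicate 2 (adjusted p = 0.0896), knockdown replicate 3 (0.0834) or control replicate 1 (0.0611). The log2 fold change itself stayed between 0.42 and 0.50 with any 1 culture left out. GENCODE lists no pseudogene of *SLC25A44* and no other gene of the table that shares its exon bases.

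The start of this gene is shown because it belongs to the 1 carrier that was called. The 78 bases shown end just before the first annotated exon and hold the CCAAT box in capitals. They are from RefSeq on GRCh38.p14, at chr1:156193854-156193931 on the plus strand, and 172 bases lie between them and the RefSeq start.
SLC25A44: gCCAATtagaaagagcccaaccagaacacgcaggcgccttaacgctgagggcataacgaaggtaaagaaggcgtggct
For comparison, the 244 bases before the first annotated exon of *SLC25A36* hold a CACGTG E-box and a CCAAT box, both in capitals. This gene had the smallest p among members with lower values. Its stretch is at chr3:140941586-140941829 on the plus strand, and 6 bases lie between it and the RefSeq start.
SLC25A36: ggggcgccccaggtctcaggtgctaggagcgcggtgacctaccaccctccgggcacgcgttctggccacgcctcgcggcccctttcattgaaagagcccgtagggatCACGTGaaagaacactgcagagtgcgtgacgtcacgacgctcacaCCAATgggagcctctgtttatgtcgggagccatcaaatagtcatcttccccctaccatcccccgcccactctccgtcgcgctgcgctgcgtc

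RefSeq promoters were found for 34 members (44 promoters), and both strands of each promoter were searched. A gene was counted when any of its promoters held the letters. The shares over all genes were not matched to the members for expression, gene type or number of promoters. The CCAAT box (letters CCAAT, a site of the factor NF-Y) was present for 20 members (58.8%), beside 39.7% of 27305 genes. The E-box CACGTG, bound by MYC and USF factors, was present for 8 members (23.5%), beside 8.77% of all genes. The core of the NRF1 site (GCGCATGCG) and the ERR element (TCAAGGTCA), known from promoters of other mitochondrial genes, were found for 0 members, beside 2.34% and 0.432% of all genes. Among these 34 members, those with a CCAAT box had a median log2 fold change of -0.066 and the others of -0.0075. The 8 members with an E-box had a median of -0.12 and the others of -0.035. These medians are a description and were not tested.

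Levels were compared between genes as CPM (each count as a share of its library, scaled to a fixed total) per kilobase of the canonical transcript, and they spanned a 612-fold range. The ADP/ATP carriers led. *SLC25A6*, whose gene lies in the pseudoautosomal region at chrX:1386152-1392113, had the highest mean level, 342 with a range of 320 to 375 over the 6 cultures. *SLC25A5* followed at 167 (147 to 199), the glutathione carrier *SLC25A39* at 104 (94.2 to 135), the oxoglutarate carrier *SLC25A11* at 54.0 (45.0 to 73.6) and the phosphate carrier *SLC25A3* at 51.9 (43.5 to 58.8). The ranges of *SLC25A11* and *SLC25A3* overlapped, while those of *SLC25A6*, *SLC25A5* and *SLC25A39* did not overlap each other or the next gene. The order depends on the transcript length used: with the median length of the coding transcripts, *SLC25A3* reached 227 and ranked next after *SLC25A6*. At the low end stood *SLC25A34* (0.69), *SLC25A53* (0.60) and *SLC25A43* (0.56), all listed here as carriers without an assigned substrate.

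**Figure D2:**
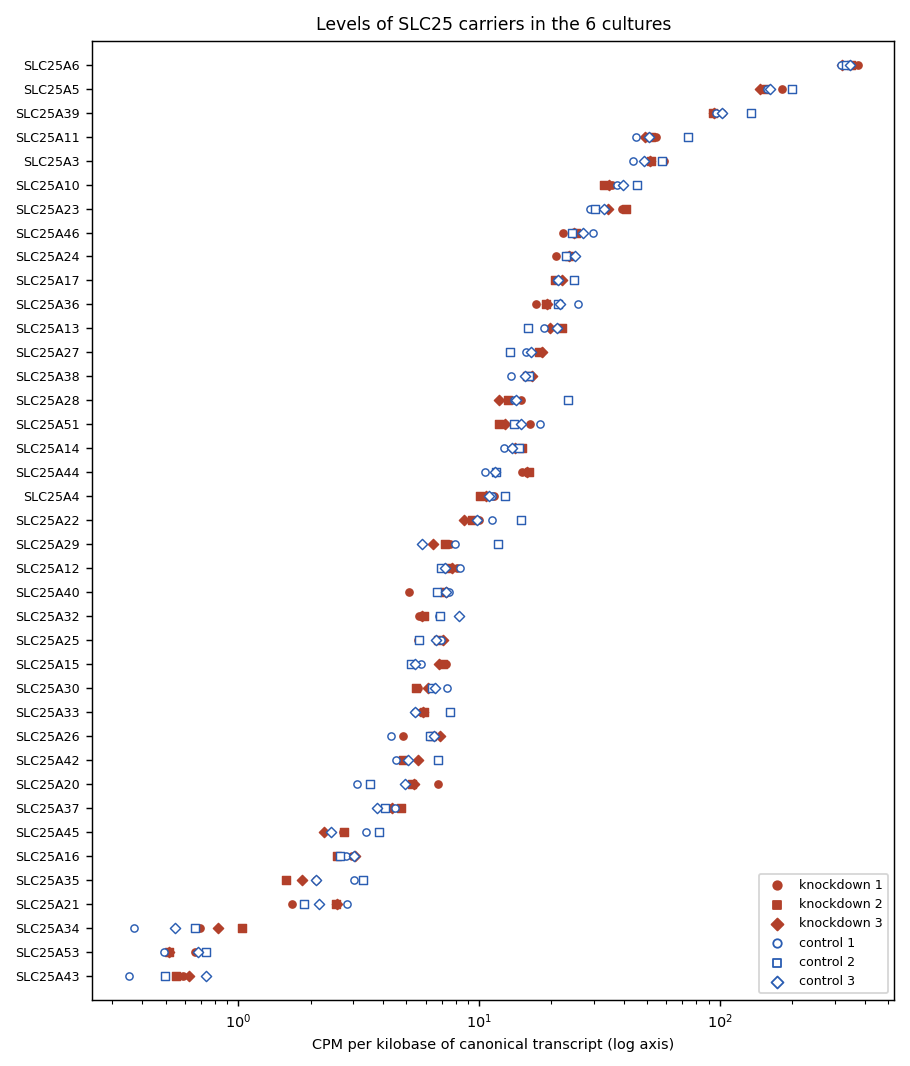
Level of 39 of the 40 carriers in the 6 cultures, in CPM per kilobase of canonical transcript on a log axis, ordered by mean. Filled symbols are knockdown and open symbols control cultures. Levels run from 0.56 for *SLC25A43* to 342 for *SLC25A6*, and the spread between cultures is narrow beside the spread between genes.

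All members together took 0.258%, 0.248% and 0.243% of the counts in knockdown replicates 1 to 3 and 0.239%, 0.267% and 0.245% in control replicates 1 to 3. These shares overlapped between the groups, and the highest belonged to control replicate 2. The members are protein-coding genes on 18 chromosomes, 5 of them on X. Values are relative to the counted reads of each bulk culture, so differences in cell number or in total RNA per cell cannot be seen or told apart.

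The 3 ADP/ATP carriers, which exchange matrix ATP for cytosolic ADP, were not called (adjusted p of at least 0.520 in edgeR's test). *SLC25A6* had 8185, 7649 and 7035 normalized counts in the knockdown cultures and 6992, 7284 and 7611 in the controls, with a log2 fold change of 0.06 (95% interval -0.14 to 0.26). *SLC25A5* had 3556, 3068 and 2888 against 3086, 3907 and 3184 (-0.10, interval -0.35 to 0.15), and *SLC25A4*, the form of heart and skeletal muscle, had 766, 674 and 707 against 751, 849 and 729 (-0.12, interval -0.35 to 0.12). The groups overlapped for all 3, and each interval excluded a 1.5-fold change. Per length, *SLC25A6* made up 61.2% to 67.8% of the summed level of these 3 genes over the 6 cultures, *SLC25A5* 30.2% to 36.4% and *SLC25A4* 1.96% to 2.34%. GENCODE lists 9 pseudogenes of *SLC25A5* and 6 of *SLC25A6*, and none of them is named in the table, so reads shared with these copies make both levels uncertain.

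Among the 4 phosphate and ATP-Mg/phosphate carriers, 3 had log2 fold changes above 0 and 0 were called. *SLC25A3*, which brings phosphate into the matrix for ATP synthesis, had 5294, 4643 and 4615 normalized counts in the knockdown cultures and 3917, 5169 and 4370 in the controls (log2 fold change 0.11, SE 0.11). *SLC25A23*, a calcium-regulated ATP-Mg/phosphate carrier, had 2059, 2132 and 1798 against 1512, 1595 and 1736. Its groups did not overlap, with a log2 fold change of 0.31 (SE 0.10, adjusted p = 0.0695 in edgeR's test). Its relatives *SLC25A24* (-0.06) and *SLC25A25* (0.01) lay near 0. *SLC25A23* was past the threshold in 3 of 14 alternative settings, without control replicate 2, without control replicate 3 and with a correction for GC content and length.

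The 9 carriers of nucleotides, NAD, CoA and vitamin cofactors had 7 log2 fold changes below 0 and 2 above, a median of -0.08, and 0 calls. *SLC25A17*, a peroxisomal carrier of CoA and related cofactors, had the highest mean level of the group with the canonical length, from 20.7 to 24.9 CPM per kilobase over the cultures. The range of *SLC25A36* (17.3 to 25.9) overlapped it, and with the median transcript length *SLC25A36* was the higher of the pair. *SLC25A17* had a log2 fold change of -0.06 (SE 0.11). *SLC25A32*, which serves FAD and folate transport, had 245, 258 and 251 normalized counts in the knockdown cultures and 298, 300 and 358 in the controls. The groups did not overlap, and the log2 fold change was -0.34 (SE 0.13, adjusted p = 0.116 in edgeR's test). *SLC25A36*, a pyrimidine nucleotide carrier, had 1483, 1632 and 1639 against 2218, 1830 and 1853. The knockdown cultures again lay below all controls, with a log2 fold change of -0.31 (SE 0.10, adjusted p = 0.0723), and the gene was called without control replicate 2 (-0.36, adjusted p = 0.0142). The NAD carrier *SLC25A51* (-0.18) and the S-adenosylmethionine carrier *SLC25A26* (0.08) had overlapping groups. Exons of *SLC25A32* share 2547 bases with an unnamed protein-coding gene of GENCODE on the same strand (ENSG00000285982), which is not named in the table, and 406 bases with *DCAF13* on the opposite strand. Those of *SLC25A26* share 2669 bases with *LRIG1* on the opposite strand, and the strand setting of the counting is not given in the sources used here.

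Of the 4 carriers of aspartate, glutamate and the malate-aspartate shuttle, which moves the reducing power of cytosolic NADH into the matrix, 2 were above and 2 below 0. *SLC25A11*, which exchanges malate for oxoglutarate, had 1379, 1318 and 1245 normalized counts in the knockdown cultures and 1146, 1873 and 1288 in the controls (log2 fold change -0.13, SE 0.16). Control replicate 2 alone was high, and without it the log2 fold change was 0.11. The glutamate carrier *SLC25A22* had 397, 370 and 346 against 450, 592 and 389, with a log2 fold change of -0.36 (SE 0.15, adjusted p = 0.158 in edgeR's test). Its groups overlapped, since knockdown replicate 1 lay above control replicate 3. Without control replicate 2, the highest value, the log2 fold change was -0.18. The aspartate/glutamate carriers *SLC25A12* and *SLC25A13*, the second called citrin, had log2 fold changes of 0.05 and 0.18.

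The 7 other carriers of amino acids, carboxylates and carnitine included the called *SLC25A44*. In 4 of them the groups did not overlap, beside 11 of all 40 members and 32.2% of all genes. *SLC25A15*, the ornithine carrier of the urea cycle, had 419, 406 and 394 normalized counts in the knockdown cultures and 330, 300 and 313 in the controls (log2 fold change 0.37, SE 0.11, adjusted p = 0.0616 in edgeR's test). All 3 knockdown values were above the controls with little spread in either group, but GENCODE lists 5 pseudogenes of this gene. *SLC25A20*, the carnitine/acylcarnitine carrier that brings fatty acids to oxidation, had 180, 141 and 144 against 83.7, 94.6 and 132. The knockdown cultures lay above the controls by a log2 fold change of 0.59 (SE 0.20, 95% interval 0.14 to 1.03, adjusted p = 0.0923), with control replicate 3 close to the knockdown range. Without that culture the log2 fold change was 0.80 with an adjusted p of 0.0234.

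*SLC25A10*, which exchanges dicarboxylates such as malate and succinate for phosphate, had the highest mean level of these 7, 37.6 CPM per kilobase. Its normalized counts were 1039, 965 and 1011 in the knockdown cultures and 1097, 1318 and 1157 in the controls (log2 fold change -0.25, SE 0.10, adjusted p = 0.141 in edgeR's test). All 3 knockdown values were below the controls. Exons of this gene share 1221 bases with another protein-coding gene on the same strand that is not named in the table. The glycine carrier *SLC25A38* (0.09), the oxodicarboxylate carrier *SLC25A21* (-0.01) and the basic amino acid carrier *SLC25A29* (-0.28) had overlapping groups. For *SLC25A29* the controls themselves ran from 201 to 414, a wider range than the knockdown cultures (221 to 262), with control replicate 2 the highest.

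The plot of 10 carriers by culture shows the members with an unadjusted p under 0.05, which were 5 higher and 5 lower after knockdown.

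The uncoupling-protein-like carriers are named for their relation to the proteins that dissipate the proton gradient. *SLC25A27* had 781, 780 and 805 normalized counts in the knockdown cultures and 693, 594 and 727 in the controls (log2 fold change 0.23, SE 0.11, adjusted p = 0.192 in edgeR's test). *SLC25A30* had 307, 303 and 338 against 404, 352 and 361 (-0.24, SE 0.12, adjusted p = 0.235). Both were separated between the groups, in opposite directions, and *SLC25A14* lay near 0 (0.06).

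Of the 4 carriers of iron and glutathione, 3 had log2 fold changes below 0, and 0 were called. *SLC25A39*, which brings glutathione into the matrix, had 2433, 2240 and 2250 normalized counts in the knockdown cultures and 2292, 3212 and 2426 in the controls (log2 fold change -0.20, SE 0.12). *SLC25A28*, the iron carrier mitoferrin-2, had 342, 304 and 279 against 321, 538 and 327 (-0.36, SE 0.19, adjusted p = 0.257 in edgeR's test). In both, control replicate 2 was high and the other controls fell within the knockdown range. Without it the log2 fold changes were -0.03 and -0.07. Mitoferrin-1 (*SLC25A37*), known from developing red cells, was at 0.12 and *SLC25A40* at -0.14.

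The 6 carriers of the outer membrane and without an assigned substrate included the 3 lowest mean levels and the largest change in each direction. *SLC25A46*, an outer-membrane protein of mitochondrial dynamics, had the highest mean level of them (25.6 CPM per kilobase) and a log2 fold change of -0.16 (SE 0.10). *SLC25A34* had 32.8, 49.0 and 38.6 normalized counts in the knockdown cultures and 17.3, 31.2 and 25.7 in the controls (0.68, SE 0.30, 95% interval 0.02 to 1.35, adjusted p = 0.173 in edgeR's test). *SLC25A35* had 61.7, 45.9 and 53.7 against 88.8, 96.4 and 61.7 (-0.61, SE 0.23, adjusted p = 0.118). The groups were separated in both, for *SLC25A35* only before rounding. Exons of *SLC25A35* share 1134 bases with *RANGRF* on the opposite strand.

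Of the members just inside the minimum, *SLC25A43* had 23, 20 and 22 counts in the knockdown cultures and 13, 21 and 27 in the controls, and *SLC25A34* had 34, 47 and 36 against 17, 35 and 25. Just outside were *SLC25A48*, with 15, 9 and 13 against 20, 16 and 9, and the glutamate carrier *SLC25A18*, with 26, 6 and 17 against 24, 22 and 23. The other 5 carriers under the minimum were not tested. Of these, *SLC25A41* had 2 to 8 counts in each culture, and *SLC25A2*, *SLC25A31* and *SLC25A47* had at most 2. *SLC25A52*, a close relative of *SLC25A51*, had 0 counts in every culture.

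Ratios within 8 pairs of related carriers were compared with an exact two-sided permutation test, in which 3 against 3 cultures allow no p under 0.10, so that no pair could pass. The ratio of *SLC25A24* to *SLC25A23*, both calcium-regulated ATP-Mg/phosphate carriers, was the 1 that did not overlap. Its log2 values were -0.63, -0.49 and -0.25 in the knockdown cultures and -0.03, -0.12 and -0.12 in the controls. The difference was -0.37 (exact permutation p = 0.10, adjusted p = 0.40 over 8 pairs), between -0.47 and -0.28 with any 1 culture left out. For *SLC25A6* to *SLC25A5* the difference was 0.16, for *SLC25A14* to *SLC25A30* 0.30 and for the mitoferrins *SLC25A37* to *SLC25A28* 0.44, each with an exact permutation p of 0.20. With 1 culture left out these ran from 0.050 to 0.23, from 0.18 to 0.39 and from 0.19 to 0.63. The lowest values came without control replicate 2, control replicate 1 and control replicate 2, and the highest without control replicate 3, control replicate 2 and control replicate 1. The pairs *SLC25A4* to *SLC25A5* (-0.02) and *SLC25A40* to *SLC25A39* (0.03) lay near 0, and their sign turned when 1 culture was left out.

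**Figure D3:**
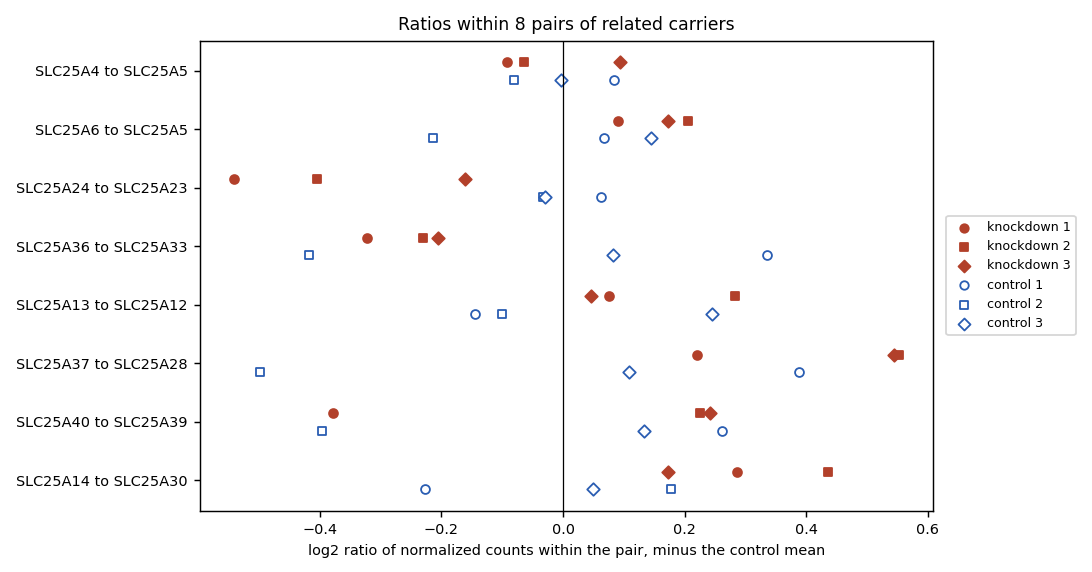
Log2 ratio of normalized counts within 8 pairs of related carriers in each culture, with the control mean of each pair set to 0. Filled symbols are knockdown and open symbols control cultures. The ratio of *SLC25A24* to *SLC25A23* is the 1 in which the groups are separate, and control replicate 2 is the lowest control in 6 of the 8 pairs.

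Control replicate 2 was the highest of the 6 cultures for 15 members (37.5%) and the lowest for 4 (10%), beside 27.0% and 24.4% of all genes tested. Its log2 ratio to the mean of the other 2 controls rose with the GC content of the transcript across the 40 members (Pearson 0.65, Spearman 0.62), and Pearson was 0.48 over 14476 genes. These are correlations across genes that share the same libraries. In the 14 members with a GC content of at least 55%, a limit chosen after the values were seen, this culture exceeded both other controls for 11, and in the 26 with a lower content for 9. The largest ratios were those of *SLC25A29* (0.80), *SLC25A28* (0.73) and *SLC25A11* (0.62), and that of *SLC25A44* was 0.08. The log2 fold change of knockdown against control showed little relation to GC content (Pearson -0.06). Without this culture the median of the members was 0.02 in place of -0.06, with 1 member called lower and 2 higher. The correlation with GC content is not given for the other cultures, and its cause was not tested.

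The surrounding genes of the carrier pathway were counted in 10 lists of 102 gene names. Some names were older symbols of a listed gene, and 13 were mitochondrial DNA genes, which the count table does not name. Of the names, 78 were tested. Of these 1 was called lower and 4 higher (6.41%, beside 10% of all genes), and their median log2 fold change was -0.04. Without control replicate 2 the calls were 4 lower and 9 higher. The lists of other inner-membrane transporters (16 tested), outer-membrane channels (4), carnitine shuttle enzymes (4) and carrier genes without an SLC25 symbol (4) held 0 calls. Among the last, the uncoupling protein gene *UCP2* lay at -0.50 on the log2 scale (SE 0.18, adjusted p = 0.0983 in edgeR's test), and *MTCH1* and *MTCH2*, carrier relatives of the outer membrane, lay at -0.02 and -0.04.

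In the import machinery 1 of 13 genes rose. *TOMM22*, a receptor of the outer-membrane import pore, had 1585, 1503 and 1389 normalized counts in the knockdown cultures and 410, 527 and 743 in the controls (log2 fold change 1.41, SE 0.18, adjusted p = 0.00111 in edgeR's test). Among 13 shuttle enzymes, 1 rose and 1 fell. *GPD2*, the mitochondrial glycerol 3-phosphate dehydrogenase of the other NADH shuttle, fell from 1916, 1557 and 1725 to 978, 1053 and 1062 (-0.75, SE 0.10, adjusted p = 0.00120 in edgeR's test). *TOMM22* and *GPD2* were called in each of 14 alternative settings.

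Of 9 iron and heme genes, *NFS1*, the cysteine desulfurase of iron-sulfur cluster assembly, rose (0.50, SE 0.14, adjusted p = 0.0408 in edgeR's test), and of 12 regulators, *PPRC1*, a coactivator related to PGC-1, rose (0.38, SE 0.09, adjusted p = 0.0205). Both were called in fewer settings, 9 and 10 of 14. Without knockdown replicate 2, knockdown replicate 3 or control replicate 1, neither passed the threshold (adjusted p of 0.114, 0.0830 and 0.132 for *NFS1* and 0.0961, 0.139 and 0.0606 for *PPRC1* in edgeR's test), and *NFS1* was also lost without knockdown replicate 1 (0.169). The replicate block ended both calls too (adjusted p of 0.0579 for *NFS1* and 0.0526 for *PPRC1*). *FECH*, the ferrochelatase that completes heme, had a change of like size that missed the threshold (0.49, SE 0.15, adjusted p = 0.0574 in edgeR's test) and was called in 8 of 14 settings. Genes of the mitochondrial DNA are not among the names of the table. Of 3 tested antisense transcripts named for members, 0 were called, and *SLC25A25-AS1* was separated between the groups (242, 242 and 245 against 214, 185 and 205, log2 fold change 0.27, adjusted p = 0.212 in edgeR's test).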

How the data were processed

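The authors deposited whole-number counts of reads per gene, without normalization, in 1 table of 6 HEK293 cultures. According to the submitters' processing notes and the study's methods, reads were checked with FastQC 0.11.9, trimmed with Trim Galore 0.6.6, aligned to hg38 with STAR 2.7.9a and counted with featureCounts 2.0.1, with ribosomal RNA removed by SortMeRNA. The paper names other releases of STAR and featureCounts. The gene annotation, the strand setting and the handling of multi-mapping reads are not given in the sources used here.

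The main test was the robust quasi-likelihood test of edgeR 4.0.16 in R 4.3.3, on the 14877 genes that passed filterByExpr, with TMM scaling and the group as the only term. Adjusted p values were taken over all genes tested, and the threshold was 0.05. The biological coefficient of variation was 12.4%, and total counts ran from 13900965 to 16869948. The study used DESeq2, which is an alternative here (DESeq2 1.42.0), with limma-voom (limma 3.58.1), other scalings and filters, a replicate block, each culture left out and a loess correction for GC content and length (span 0.3, known for 97.3% of genes tested). The main test, the replicate block, DESeq2, limma-voom and the corrected fit were run on simulated counts that held no GC or replicate effect. The fits with other scalings, other filters or a culture left out were not. The exact test of pairs, the tables and the figures used Python 3.11.15.

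Of the gene names, 23161 matched GENCODE release 44 by symbol and 1357 by an older symbol, and 1967 did not. Lengths and GC content are those of the canonical transcript. Promoters are the RefSeq sequences on GRCh38.p14, cut before the first annotated exon where printed.

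The members, lists, tests and rule for named genes were chosen with earlier results of these data known. Genes named were called members, the highest level and the largest change of each functional group, those nearest the count minimum and called genes of each pathway list. Others were named after their values were seen. Protein sequences were not used here. Values of 3 single genes are left out of the text, but their rows were kept for counts, medians and correlations.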

Additional observations from a re-analysis of the deposited data

How the results depend on the processing

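The members called moved with the culture left out and with the correction for GC content and length. With any 1 culture left out, between 0 and 1 members were called lower and between 0 and 3 higher, with 0 higher without knockdown replicate 2, knockdown replicate 3 or control replicate 1, 2 higher without control replicate 2 and 3 higher without control replicate 3. The 1 lower call came without control replicate 2 (*SLC25A36*) or control replicate 3 (*SLC25A35*). With the correction, 1 member was called lower (*SLC25A22*, -0.35) and 4 higher (*SLC25A44*, *SLC25A15*, *SLC25A23* and *SLC25A20*), while 19.5% of all genes were called. Pathway genes ran from 1 to 4 lower and from 2 to 9 higher with 1 culture left out, with 4 lower and 9 higher without control replicate 2, 2 lower without control replicate 3, and 2 higher without knockdown replicate 2, knockdown replicate 3 or control replicate 1. The cause was not tested.

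The other scalings, filters and tests gave the same member counts as reported. Over all genes, the calls rose to 1238 lower and 1274 higher without control replicate 2, and the correction for GC content gave 1520 lower and 1374 higher. Without knockdown replicates 1, 2 and 3 in turn 252, 247 and 233 genes were lower and 341, 289 and 297 higher, without control replicate 1 294 and 375, and without control replicate 3 994 and 1087. Deviations of the cultures from their group mean had correlations of -0.20, -0.11 and -0.04 between the same replicate numbers. Between different numbers they ran from -0.07 to 0.16. With 3 cultures a group, these values cannot decide whether the cultures were paired. With the replicate block, 619 genes were called lower and 714 higher, members stayed at 0 lower and 1 higher, and *SLC25A44* lay at 0.47 on the log2 scale (adjusted p = 0.0310 in edgeR's test), while *NFS1* and *PPRC1* lost their calls.

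The sign of 14 members, none of them called, turned with 1 culture left out, and for 10 of them it turned without control replicate 2. With 1 culture left out, the log2 fold changes ran from -0.27 to 0.11 for *SLC25A11*, -0.0064 to 0.13 for *SLC25A12*, -0.024 to 0.097 for *SLC25A16*, -0.098 to 0.026 for *SLC25A17*, -0.14 to 0.17 for *SLC25A21* and -0.071 to 0.11 for *SLC25A25*. The ranges were -0.085 to 0.22 for *SLC25A26*, -0.49 to 0.041 for *SLC25A29*, -0.16 to 0.10 for *SLC25A33*, -0.22 to 0.012 for *SLC25A40*, -0.21 to 0.094 for *SLC25A42*, -0.058 to 0.47 for *SLC25A43* and -0.19 to 0.016 for *SLC25A5*. The correction for GC content put *SLC25A21* at 0.078 and *SLC25A25* at -0.0060. Among the pathway genes named, *MTCH1* ran from -0.11 to 0.077 and *MTCH2* from -0.12 to 0.0079. The pair difference ran from -0.078 to 0.021 for *SLC25A4* to *SLC25A5* and from -0.17 to 0.23 for *SLC25A40* to *SLC25A39*.

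At this depth 5 members had a mean under 100 normalized counts, with standard errors of 0.21 to 0.34. In edgeR's test, p values set the difference between the groups against the spread between these 6 cultures of 1 line, estimated with information from all genes tested.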
